A study of Mus musculus with 20 samples.

Results

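The genes Fam183b, 1700012B09Rik, Tmem212, Mia, Enkur and Cd24a, known as markers of ependymal cells, were followed through all libraries of a study of sorted cells from the newborn mouse brain. They are 6 of the 45705 genes in the table and were picked because they were high in the neural stem cell (NSC) libraries. Their levels in NSC against the progenitors are therefore given as a description, with no test. The questions are how much of the NSC libraries these genes take up, and how much of them is found in the libraries of the other sorted cells.

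The cells came from the periventricular zone of Swiss Webster pups at postnatal day 5, where all pups of a litter, of both sexes, were pooled. They were dissociated with Liberase, and live single cells were sorted by 4 surface antigens, CD133, LeX (CD15), CD140a and NG2. There were 5 sorted populations with 4 libraries each, 1 in each of 4 numbered batches. Besides the NSC gate, these were the BNAP/GRP1, the GRP2/MP3, the GRP3 and the PFMP gate, called progenitors here, and the former pair each carry the names of more than one progenitor type. No group was treated, and no transgene or deletion was used. PolyA RNA was amplified before sequencing. A library is named by its population and batch, so NSC 3 is the NSC library of batch 3. Values are RPKM, in which the reads of a gene are divided by its length and by the reads of the library, and log2 values are log2(RPKM + 1).

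Ependymal cells line the ventricles with tufts of motile cilia that move cerebrospinal fluid. They lie next to the NSCs of the subventricular zone, and they carry CD133 on their cilia, so a sort on CD133 alone can hold both cell types. The NSC gate was not such a sort: by the study's definition NSCs carry CD133 and LeX but neither NG2 nor CD140a. CD24, which ependymal cells also carry, was not among the sort antigens. The motile cilium program is switched on by the transcription factors FOXJ1 and RFX, and its products fill the axoneme, the microtubule core of the cilium. Fam183b encodes a cilium-associated protein and Enkur encodes enkurin, an axonemal protein that binds calcium channels. 1700012B09Rik and Tmem212 are known by a clone name and as a transmembrane protein, and both are read in multiciliated cells. Mia encodes a small secreted protein first described in melanoma and cartilage. Cd24a encodes the surface protein CD24, which neuroblasts and immature red blood cells carry as well.

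The genes lie apart from each other in the genome (GRCm38, GENCODE vM21, all protein coding). Fam183b spans bases 58792797 to 58801960 of chromosome 11, 1700012B09Rik bases 14756587 to 14771030 of chromosome 9, and Tmem212 bases 27866066 to 27896368 of chromosome 3. Mia spans bases 27179742 to 27181157 of chromosome 7, Enkur bases 21180731 to 21205365 of chromosome 2, and Cd24a bases 43578284 to 43584265 of chromosome 10. All are on the minus strand except Cd24a. Mia overlaps the same-strand gene Gm21983 over most of its length, so reads of the pair may have been split between them, and its values are less certain. Gm21983 itself was listed between 1.25 and 129.4 RPKM in NSC and between 0 and 2.68 in the progenitors.

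The promoters are shown because the members other than Cd24a move together and the RFX factors bind a short site that can be searched for. The letters GTTGCC, a short form of the RFX motif, were searched on both strands in the 250 bases before each gene start (RefSeq, GRCm38.p6). Of the 5 member promoters found there, those of Fam183b, 1700012B09Rik and Enkur hold these letters, all on the strand of the gene, and 10.4% of all 32851 promoters of that length hold it. It begins 67 and 16 bases before the start in Fam183b, 78 in 1700012B09Rik and 34 in Enkur. The full X-box inverted repeat (0.374% of promoters), its relaxed form (1.57%), which includes every match of the former, and the forkhead letters GTAAACA (3.17%) were in none of the 5. A match is a description and not a bound site. The 3 promoters with a match follow, 5′ to 3′ on the gene's strand, at chr11:58801961-58802210, chr9:14771031-14771280 and chr2:21205366-21205615, all minus strand, with the GTTGCC letters in capitals.
Fam183b: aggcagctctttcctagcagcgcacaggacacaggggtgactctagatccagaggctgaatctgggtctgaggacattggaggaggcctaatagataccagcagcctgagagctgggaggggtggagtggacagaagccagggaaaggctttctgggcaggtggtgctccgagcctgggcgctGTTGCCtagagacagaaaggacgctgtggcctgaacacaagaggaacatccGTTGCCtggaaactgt
1700012B09Rik: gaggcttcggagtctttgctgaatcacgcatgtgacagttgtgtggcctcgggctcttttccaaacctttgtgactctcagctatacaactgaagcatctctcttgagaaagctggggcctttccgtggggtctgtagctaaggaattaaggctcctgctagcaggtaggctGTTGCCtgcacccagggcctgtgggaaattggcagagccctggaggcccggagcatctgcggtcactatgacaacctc
Enkur: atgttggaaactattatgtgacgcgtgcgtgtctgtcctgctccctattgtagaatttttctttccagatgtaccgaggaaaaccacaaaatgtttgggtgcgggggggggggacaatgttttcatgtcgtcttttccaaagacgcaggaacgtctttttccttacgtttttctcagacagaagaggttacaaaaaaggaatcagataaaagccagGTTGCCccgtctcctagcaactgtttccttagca

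Before the levels, the libraries need a description. RPKM summed to between 955067 and 2407643 per library, and 20116 to 39689 genes were above 0. Read totals are unknown, but low values stand in steps of whole reads, which gave a depth relative to BNAP/GRP1 1 of 0.0395 for BNAP/GRP1 4, the lowest, and 1.41 for BNAP/GRP1 3, the highest. The 5 libraries of batch 3 stood apart from their labels. The summed RPKM of 6 erythroid markers was 228440 to 252653 there and at most 26515 in the other 15 libraries. In batch 3, Scgb1a1, a club cell gene of the airways, was listed at 838.8 in NSC and 904.4 to 964.8 in the progenitors, and at most at 13.6 elsewhere. The neural markers were low in batch 3, with a sum over 10 NSC and astroglia markers of 158.3 to 298.2 against 347.3 to 15143 in the other libraries. All 4 NSC libraries held the astroglial transporter Slc1a3 (7.18 to 577.8) and Sox2 (19.8 to 182.5), but Gfap was listed at 0 in 1 of them. These genes did not mark the NSC gate alone. The highest progenitor values were 294.8 for Slc1a3, 230.7 for Sox2 and 268.2 for Gfap. Those of Sox2 and Gfap exceeded the NSC maxima of 182.5 and 222.9. The median sum of the 10 markers was 8287 in PFMP, 7066 in GRP3, 4995 in NSC, 1931 in BNAP/GRP1 and 1231 in GRP2/MP3. None of the 10 NSC and astroglia markers was called lower in BNAP/GRP1 than in NSC, and 1 was in each of the other 3 progenitors, by limma at an adjusted p under 0.05. Only 0.76% to 1.14% of all genes were called lower in these comparisons, so counts out of 10 say little. The median log2 difference of the 10 markers from NSC lay between -1.59 and -1.03. Because batch 3 stood apart, the main values are also given without it.

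Fam183b was listed at 838.9, 2805, 402.9 and 1147 RPKM in NSC 1 to 4. In the 16 progenitor libraries it lay between 0.0261 and 20.6. All 4 NSC libraries were above all progenitor libraries, in a gene picked for its high NSC level. Among the progenitors GRP2/MP3 4 (20.6), GRP3 4 (13.2) and PFMP 4 (8.61) stood above the other 13, which were at most at 1.37. As means of log2 values, NSC had 9.998 ± 1.16 (SD, n = 4), followed by GRP2/MP3 (1.49 ± 2.03), GRP3 (1.38 ± 1.64), PFMP (1.29 ± 1.32) and BNAP/GRP1 (0.57 ± 0.53). NSC minus the mean of the 4 progenitors was 8.81, and 8.99 without batch 3. The progenitors next to each other in this order did not differ beyond their spread.

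The steps of Fam183b show how few reads lie behind the low values. A single read stood behind the value in BNAP/GRP1 2, 3 and 4 and in GRP2/MP3 2 and 3. GRP2/MP3 4, GRP3 4 and PFMP 4 held 162, 99 and 231 reads, and NSC 1 to 4 held 3589, 27859, 8048 and 4922. Steps were recovered within 0.03 of a whole number for Fam183b, 1700012B09Rik, Tmem212 and Enkur, but not for Mia and Cd24a.

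Enkur was listed at 223.4, 743.3, 128.0 and 1044 RPKM in NSC 1 to 4. In the progenitors it ran from 0 in BNAP/GRP1 3 to 21.0 in GRP2/MP3 4. NSC 4 was its highest library, unlike the other members, and BNAP/GRP1 2 (18.4, from 336 reads) was its second highest progenitor library. The log2 means were 8.60 ± 1.42 for NSC, then 2.33 ± 1.99 for BNAP/GRP1, 1.75 ± 1.81 for GRP2/MP3, 1.47 ± 1.46 for PFMP and 1.41 ± 1.15 for GRP3 (SD, n = 4 each). NSC minus progenitors was 6.86, and 7.02 without batch 3.

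1700012B09Rik was listed at 511.2, 2460, 192.7 and 649.3 RPKM in NSC 1 to 4. Among the progenitors the 4 libraries of batch 4 held 23.4 (GRP2/MP3), 15.7 (BNAP/GRP1), 6.04 (PFMP) and 5.64 (GRP3). The other 12 stayed under 1 RPKM, and 5 of them, GRP2/MP3 3, GRP3 3 and PFMP 1 to 3, were listed at 0. Here batch 4 did not overlap with the other batches in any progenitor, and the share of all genes with that pattern was not counted. The log2 means were 9.30 ± 1.51 in NSC and 1.44 ± 2.13, 1.39 ± 1.79, 1.11 ± 1.16 and 0.70 ± 1.41 in GRP2/MP3, BNAP/GRP1, GRP3 and PFMP (SD, n = 4 each). NSC minus progenitors was 8.14, and 8.35 without batch 3.

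Tmem212 was listed at 794.6, 3005, 184.3 and 1544 RPKM in NSC 1 to 4. The progenitors lay between 0 (PFMP 1) and 52.4 (GRP2/MP3 4), and the latter was the highest progenitor value of any member but Cd24a. The next were PFMP 4 (7.28), BNAP/GRP1 4 (6.60), GRP3 4 (6.28) and GRP2/MP3 1 (5.90), so that batch 4 stood above the rest here too, by a narrow margin. The log2 means were 9.83 ± 1.72 in NSC, 2.51 ± 2.36 in GRP2/MP3, 1.78 ± 0.99 for BNAP/GRP1, 1.59 ± 0.94 for GRP3 and 1.256 ± 1.33 for PFMP (SD, n = 4 each). NSC minus progenitors was 8.05, and 8.64 without batch 3.

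Mia was listed at 178.6, 580.9, 56.4 and 411.5 RPKM in NSC 1 to 4. Its progenitor values ran from 0 in GRP2/MP3 3 and GRP3 3 to 17.8 in GRP2/MP3 4. BNAP/GRP1 4 (13.8), BNAP/GRP1 2 (8.18) and PFMP 2 (6.68) came next, so that batches 2 and 4 overlapped. The log2 means were 7.80 ± 1.49 in NSC, 2.01 ± 0.99 in PFMP, 1.99 ± 1.84 in BNAP/GRP1, 1.41 ± 1.91 in GRP2/MP3 and 1.07 ± 1.07 in GRP3 (SD, n = 4 each). NSC minus progenitors was 6.18, and 6.37 without batch 3.

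Cd24a stood apart from the other members. It was listed at 375.0, 472.3, 288.4 and 82.2 RPKM in NSC 1 to 4, and in the progenitors between 8.22 (BNAP/GRP1 4) and 253.7 (PFMP 3). The groups overlapped, since all 4 progenitors of batch 3 (237.4 to 253.7) and GRP2/MP3 2 (84.6) were above NSC 4. The log2 means were 8.00 ± 1.12 in NSC, 6.40 ± 1.10 in PFMP, 6.22 ± 1.265 in GRP3, 5.98 ± 1.60 in GRP2/MP3 and 5.83 ± 1.97 in BNAP/GRP1 (SD, n = 4 each). NSC minus progenitors was 1.89, and 2.45 without batch 3. Within each batch the NSC library was nonetheless above the 4 progenitors.

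**Figure D1:**
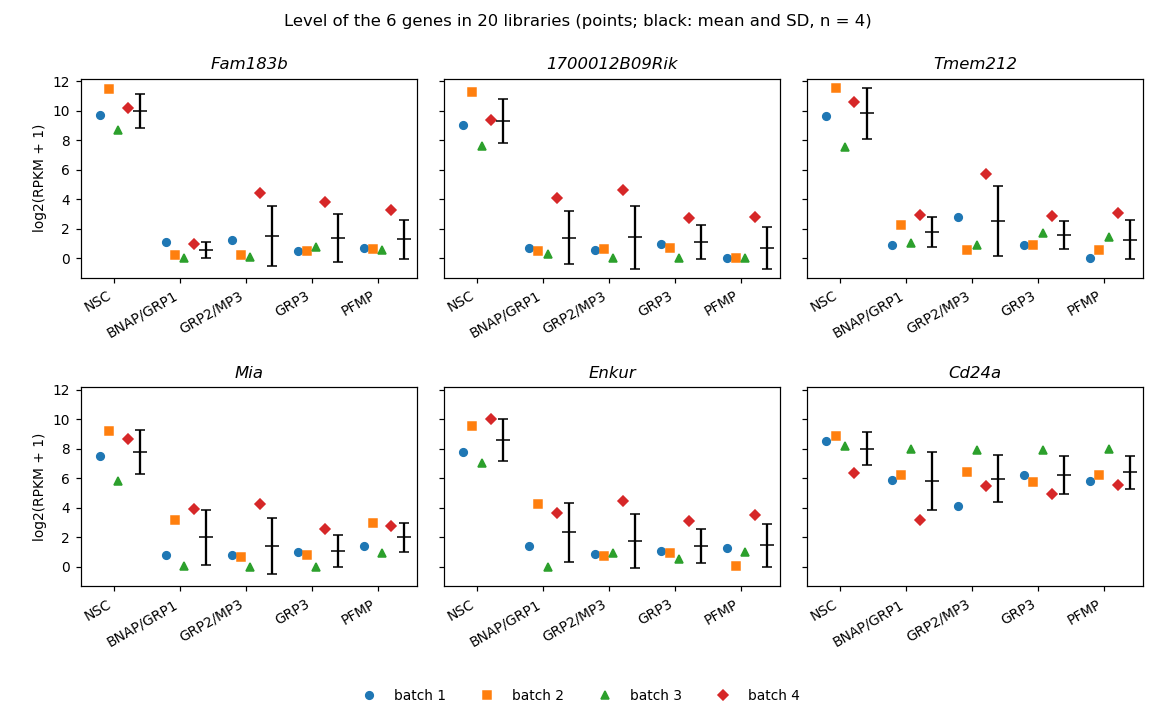
Level of each gene as log2(RPKM + 1) (vertical axis) in the 5 populations (horizontal axis), with 1 point per library coloured by batch and the mean with SD in black (n = 4). For 5 of the 6 genes all NSC points lie above all progenitor points and batch 4 gives the highest progenitor point of most populations. Cd24a overlaps and is high throughout batch 3. The genes were picked for a high NSC level, and the share of all genes separated in this way was not counted.

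The NSC libraries differed among themselves. The highest NSC library exceeded the lowest by 6.96-fold for Fam183b, 8.16-fold for Enkur, 10.3-fold for Mia, 12.8-fold for 1700012B09Rik and 16.3-fold for Tmem212. NSC 3 was the lowest in all 5 of these genes and NSC 2 the highest in all but Enkur. For Cd24a the range was 5.74-fold and the order was another, with NSC 4 the lowest.

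Together the 6 genes took up 0.267%, 0.595%, 0.0873% and 0.474% of the summed RPKM of NSC 1 to 4. Without Cd24a these shares were 0.233%, 0.567%, 0.0672% and 0.466%. In the progenitors the 6 genes held between 0.00116% (GRP2/MP3 1) and 0.0183% (PFMP 3), and without Cd24a between 9.3e-05% (BNAP/GRP1 3) and 0.0107% (GRP2/MP3 4). What was left in the progenitors was largely Cd24a, which made up 98.4% to 99.5% of the 6 in batch 3 and 63.4% to 97.2% in batches 1 and 2, but 14.4% to 54.9% in batch 4. In NSC it made up 1.69% to 23.0%. These are shares of RNA and not of cells: in pooled RNA, fewer cells of a type and less RNA per cell cannot be told apart.

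The level in a progenitor library can be set against that of the NSC library of the same batch. For the 5 genes other than Cd24a, the 60 values of batches 1 to 3 lay between 0% and 2.48% of NSC, with a median of 0.111%. In batch 4 the 20 values lay between 0.0811% and 4.32%, with a median of 1.13%. The batches overlapped, and the medians over the 5 genes were 0.177%, 0.0238%, 0.118% and 1.13% in batches 1 to 4.

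Within batch 4, GRP2/MP3 held the most of every one of these 5 genes, with 1.79% of NSC for Fam183b, 3.60% for 1700012B09Rik, 3.39% for Tmem212, 4.32% for Mia and 2.01% for Enkur. GRP3 4 held 0.407% to 1.17% and PFMP 4 0.471% to 1.40%. In each of these 3 libraries the 5 genes stood close together, with the highest percentage 2.41, 2.89 and 2.97 times the lowest. BNAP/GRP1 4, the library of least depth, was uneven, with 0.0811% of NSC for Fam183b, from a single read, 0.427% for Tmem212, 1.11% for Enkur, 2.42% for 1700012B09Rik and 3.36% for Mia. BNAP/GRP1 2 was uneven too, since Enkur stood at 2.48% and Mia at 1.41% of NSC 2 while Fam183b stood at 0.00578%.

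The same percentages for Cd24a were higher by far. They were 4.27% to 19.8% in batch 1, 11.4% to 17.9% in batch 2, 82.3% to 88.0% in batch 3 and up to 56.5% in batch 4. The lowest were GRP2/MP3 1 and BNAP/GRP1 4.

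**Figure D2:**
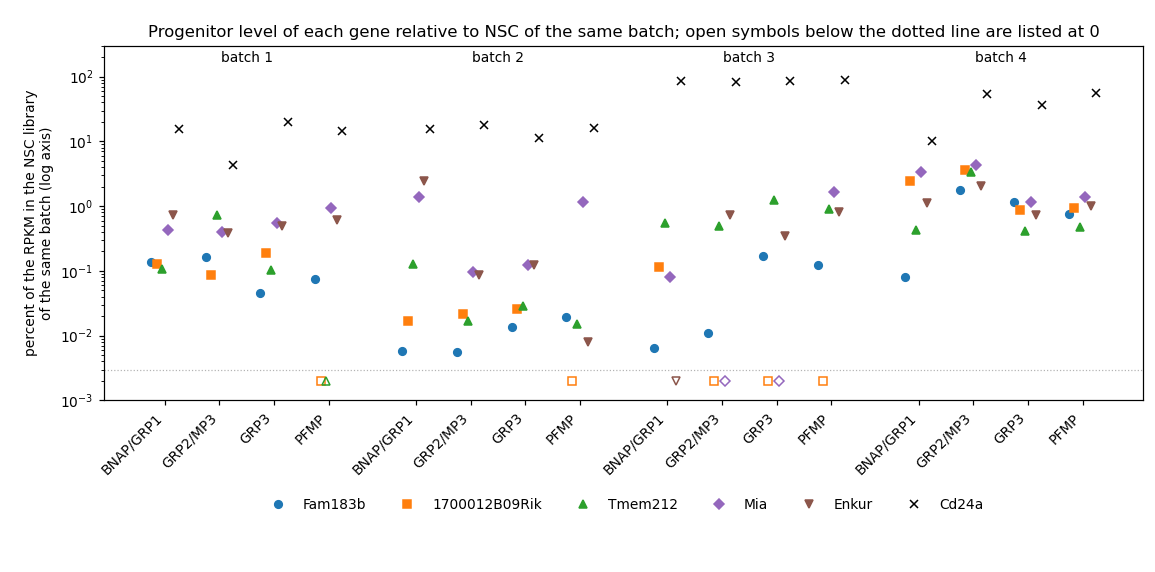
RPKM of each gene in a progenitor library as percent of the NSC library of the same batch (vertical log axis), with the 16 progenitor libraries grouped by batch along the horizontal axis, 1 symbol per gene and open symbols for genes listed at 0. GRP2/MP3 4 holds 1.79% to 4.32% of NSC for the 5 genes other than Cd24a, and the Cd24a symbols sit at 82.3% to 88.0% in batch 3.

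The progenitors were then compared with each other, a comparison that did not choose the genes. All 6 members passed the filter on low values, 1 RPKM or more in 4 or more of the 20 libraries. None of them was called in any of the 6 comparisons between pairs of progenitors (limma, adjusted p of at least 0.740), nor was any of the 27614 genes tested (0.0% called in each). At an unadjusted p under 0.05, 0 of the 36 member values passed, against 1.2%, 1.9% and 4.91% of all genes for BNAP/GRP1 against GRP2/MP3, GRP3 and PFMP, 1.69% and 1.66% for GRP2/MP3 against GRP3 and PFMP, and 0.304% for GRP3 against PFMP. The largest member difference was 1.25 on the log2 scale for Tmem212 in GRP2/MP3 minus PFMP (SE 1.02, 95% interval -0.87 to 3.38, unadjusted p = 0.233 by limma). The intervals of the 36 values reached from -3.01 to 3.38. This fit has no batch block, so differences between batches widen its intervals, and several-fold differences between progenitors could be missed by it. With batch as a block no member was called in any pair either.

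The batches were compared in the 16 progenitor libraries alone, where no NSC library enters. Batch 4 against the other 3 batches gave the largest differences of the 5 genes other than Cd24a. Tmem212 was higher in batch 4 by 2.48 on the log2 scale (SE 0.54, adjusted p = 0.00485 by limma) and Enkur by 2.59 (SE 0.57, adjusted p = 0.0049). Of all 22503 genes tested, 23.1% were called higher in batch 4 and 6.75% lower, and the median of all genes was 0.62 higher. Relative to that median their differences were 1.86 and 1.97. Fam183b, Mia and 1700012B09Rik reached 1 RPKM in 2, 3 and 0 of the 12 libraries outside batch 4. They passed the filter of 4 libraries only through batch 4, so their differences of 2.58, 2.31 and 3.19 are a description, and their calls are no support. With no filter the same comparison called 44.2% of 42397 genes higher, all 5 members other than Cd24a among them, and 4.19% lower, so a higher level in batch 4 was common among genes of low level.

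Other values moved with batch 4. After quantile normalization Tmem212 (1.39, adjusted p = 0.146) and Enkur (1.55, adjusted p = 0.121) were no longer called, and with batch 3 left out they were at 2.54 (adjusted p = 0.0178) and 2.36 (adjusted p = 0.0301), where 8.26% of all genes were called higher and 3.58% lower. The median RPKM over all genes was 0.00791 to 8.30 in the batch 4 libraries and 0 to 0.237 in the others. Among the other markers in the batch 4 progenitors, 3 of 9 NSC and astroglia markers, 3 of 8 neuroblast markers and 2 of 5 choroid plexus markers were called higher, against the 23.1% of all genes. Called lower were 5 of 6 erythroid, 2 of 8 microglia and 1 of 7 lung epithelium markers, against 6.75%, and none of 6 oligodendrocyte progenitor markers was called. With batch 3 left out, 2 of 9 NSC and astroglia markers were called higher and 1 lower, 2 of 5 erythroid markers were called lower, and no marker of the other lists was called. The part of these in the result was not tested.

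Cd24a went the other way, lower in batch 4 by 1.74 on the log2 scale (SE 0.46, adjusted p = 0.0132 by limma), or 2.36 below the median of all genes. That call was lost without BNAP/GRP1 4 (-1.15, adjusted p = 0.0694) and without batch 3 (-1.03, adjusted p = 0.237). In batch 3, Cd24a was 2.46 higher (SE 0.46, adjusted p = 0.00089), where 13.1% of genes were called higher and 21.4% lower and the median of all genes was 0.67 lower. Enkur at -1.49 (adjusted p = 0.0556) and Tmem212 at -0.68 (adjusted p = 0.305) did not pass. Mia (-1.83), 1700012B09Rik (-1.45) and Fam183b (-1.10) entered only through batch 4, which here stands on the other side of the comparison, so that these values are a description. With no filter, 6.01% of genes were called higher in batch 3 and 7.91% lower. With batch 4 left out, those 3 genes could not be tested, Tmem212 stood at 0.16 and Cd24a was still called higher in batch 3. In batches 1 and 2 no member was called by limma, where 1.32% and 1.23% of genes were called higher and 2.26% and 2.41% lower. At an unadjusted p under 0.05 stood 1700012B09Rik in both batches and Fam183b in batch 2. These genes passed the filter only through batch 4, on the other side of the comparison, so their values are a description.

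**Figure D3:**
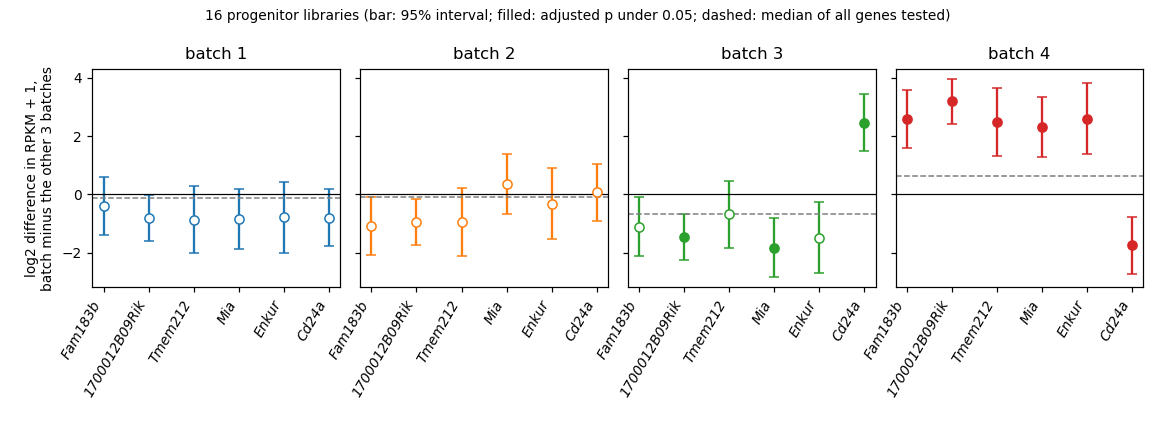
Difference of each batch from the other 3 (vertical axis, log2 scale) for the 6 genes in the 16 progenitor libraries, with 95% intervals, filled points at an adjusted p under 0.05 and a dashed line at the median of all genes tested. In batch 4 the 5 genes other than Cd24a lie between 2.31 and 3.19, above the median of 0.62, though Fam183b, 1700012B09Rik and Mia passed the filter only through batch 4, and Cd24a is at 2.46 in batch 3 and -1.74 in batch 4.

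Erythroid markers stood at their highest where Cd24a was high in the progenitors. In batch 3 the haemoglobin gene Hbb-bs was listed at 98873 to 103020 in the progenitors and 91652 in NSC 3, and the haem enzyme gene Alas2 at 213.0 to 227.0 in the progenitors. Outside batch 3 the order did not hold, since GRP2/MP3 1 had an erythroid sum of 26515 and Cd24a at 16.03, and NSC 2 had a sum of 650.2 and Cd24a at 472.3. The summed RPKM of 8 neuroblast markers was 2.63 to 18.7 in batch 3 and 94.9 in NSC 4. The part of red blood cells or neuroblasts in the Cd24a level was not tested.

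**Figure D4:**
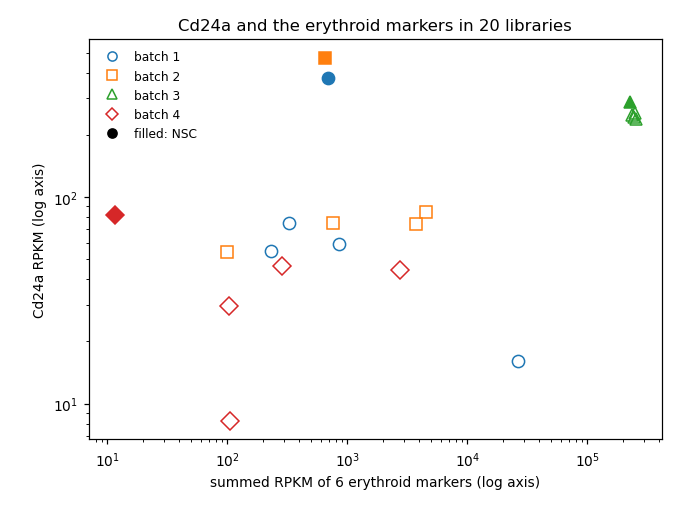
Cd24a RPKM (vertical log axis) against the summed RPKM of 6 erythroid markers (horizontal log axis) in the 20 libraries, coloured by batch, with NSC libraries filled. The 5 libraries of batch 3 sit together at a sum of at least 228440 and a Cd24a level of 237.4 to 288.4, apart from the other 15.

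The members other than Cd24a varied together across libraries. Over all 20 libraries, Pearson's r of the log2 values was 0.930 to 0.975 in the 10 pairs without Cd24a, and 0.593 to 0.826 over the 16 progenitors. In the 5 pairs with Cd24a it was at least 0.228 over 20 libraries, and -0.631 to -0.417 over the progenitors. Without batch 3 the pairs with Cd24a were at 0.528 to 0.631 over 15 libraries and at -0.533 to -0.237 over 12 progenitors, and the other pairs at 0.930 to 0.977 and 0.511 to 0.842. The points share batches and depth, the NSC libraries stand apart from the rest in the former and batch 4 in the latter, so these values describe the libraries and carry no p.

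The genes most like each member were those with the highest r over the 20 libraries among all genes tested. For Fam183b they were Efcab10 (r = 0.991), Dynlrb2 (0.986), 1700012C08Rik (0.972), Lrrc23 (0.964) and Dnali1 (0.964). For 1700012B09Rik they were 1700007K13Rik (0.987), Spata33 (0.987), Efcab10 (0.983), 4833427G06Rik (0.982) and Dnali1 (0.982). For Tmem212 they were 4833427G06Rik (0.977), Tsnaxip1 (0.975), Pifo (0.974), Dynlrb2 (0.972) and 1700007K13Rik (0.972). Capsl led for Mia (0.986) and 1700007G11Rik for Enkur (0.984), and the lists of the latter pair shared Capsl, Nme5 and 1700007G11Rik. For Cd24a the nearest were Prdx6 (0.937), Gclm (0.890), Glrx (0.864), Chmp2b (0.862) and Pnp2 (0.860), none of which was on the list of another member, and without batch 3 these r were 0.789 to 0.903 over 15 libraries. Dynlrb2 and Pifo are also on the list of other cilium genes described next.

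Ependymal genes that are not members were compared too, but they were chosen with earlier results of these data known. The study already lists Foxj1, Zfp474, Trp73 and Rfx2 as lower in all 4 progenitors, so the calls here are no independent support. A list of 26 such genes held 13 genes of the motile cilium, 5 of the transcription program and 8 that act outside the cilium. They were compared between each progenitor and NSC with limma over all 27614 genes, of which 0.76%, 1.12%, 1.04% and 1.14% were called lower, in the order BNAP/GRP1, GRP2/MP3, GRP3, PFMP. Of the 26, 15, 18, 18 and 21 were called lower. None was called higher, against 0.0% of all genes in the former pair, 0.0109% for GRP3 and 0.00362% for the PFMP gate. Ak7, Pifo, Sntn, Zfp474, Trp73, Mcidas and Rfx2 reached 1 RPKM in fewer than 4 progenitor libraries and so passed the filter only through NSC, where they were high. Of the other 19 genes, 12, 13, 15 and 15 were called lower. With batch as a block 21, 23, 23 and 23 of the 26 were called lower, and without batch 3 the counts were 16, 18, 20 and 22. Without batch 2 they were 3, 4, 6 and 8, and without batch 1 they were 5, 8, 8 and 9.

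Of the 13 cilium genes, 9, 12, 12 and 13 were called lower in the same order, and of the 9 that passed the filter without NSC, 6, 8, 9 and 9. Dynlrb2, a dynein light chain, was listed at 1492 ± 1344 RPKM in NSC (SD, n = 4) and at most at 29.8 in the progenitors, lower by 8.14 to 8.49 on the log2 scale (SE 1.03). Ccdc153, of the axoneme, was listed at 1378 ± 1890 in NSC and at most at 5.35 in the progenitors, and its difference was -8.18 to -8.98 (SE 0.73). Meig1 and Riiad1 had NSC means of 1997 and 739.0. The exceptions were Fhad1, Spag16, Spef2 and Zfp474 in BNAP/GRP1, Fhad1 in GRP2/MP3 and Zfp474 in GRP3. The summed level of the 13 genes ordered the NSC libraries as the 5 members without Cd24a did, with 17223 in NSC 2, 5370 in NSC 4, 4352 in NSC 1 and 1814 in NSC 3.

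Of the 5 transcription genes, Foxj1 and Rfx3 passed the filter without NSC. Foxj1, the master regulator of motile cilia, was listed at 33.1 to 352.3 RPKM in NSC and 0.00416 to 9.42 in the progenitors, and differed by -5.45 to -6.27 on the log2 scale in the 4 of them (SE 0.79, adjusted p of 0.000109 to 0.000828 by limma). Rfx3 was called in no progenitor, at -1.08 to -1.94. Mcidas, which starts multiciliation, and Rfx2 were at means of 6.18 and 5.24 RPKM in NSC and reached 1 RPKM in 2 progenitor libraries and 1 of them, so their values are a description.

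Of the 8 genes outside the cilium, 5, 4, 5 and 5 were called lower. Among them Hdc, which makes histamine, differed by -5.34 to -6.24 (SE 0.92) and Calml4 by -6.04 to -6.68 (SE 0.90). Rarres2, which encodes the secreted protein chemerin, was listed at 1061 ± 1086 RPKM in NSC and was not called in GRP2/MP3 (-4.60, adjusted p = 0.216), where 1 library was listed at 436.4. The water channel gene Aqp4, S100b and Pltp were called in no progenitor. Aqp4 and S100b are also read in astroglia.

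**Figure D5:**
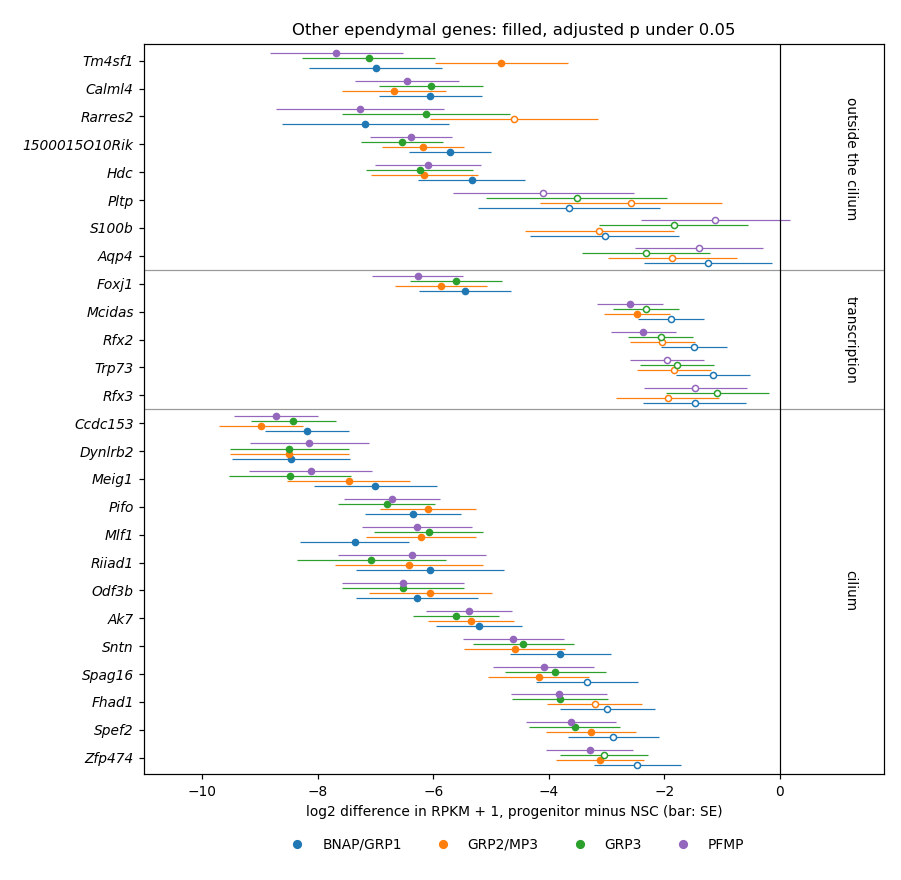
Difference of each progenitor from NSC (horizontal axis, log2 scale, with SE) for 26 other ependymal genes (vertical axis) in 3 groups, with filled points at an adjusted p under 0.05. Cilium genes reach -8.98 (Ccdc153), Foxj1 lies between -5.45 and -6.27, and Rfx3, Trp73, Aqp4, S100b and Pltp have open points in all 4 progenitors; Ak7, Pifo, Sntn, Zfp474, Trp73, Mcidas and Rfx2 passed the filter only through NSC.

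The other ependymal genes were compared between batches in the 16 progenitor libraries too. Of the 15 that passed the filter without batch 4, 8 were called higher in batch 4, namely 4 of 6 cilium genes, 4 of 8 genes outside the cilium and not Rfx3, against 23.1% of all genes. Dynlrb2 was higher by 2.69 (adjusted p = 0.00305 by limma) and Rarres2 by 4.12 (adjusted p = 9.62e-05). With batch 3 left out, 4 of the 15 were called higher, 1 cilium gene and 3 outside the cilium, against 8.26% of all genes. Odf3b, Spag16, Spef2 and Foxj1 passed the filter only through batch 4 and are not counted. In batch 3, 4 of the 6 cilium genes, 5 of the 8 genes outside the cilium and Rfx3 were called lower, against 21.4% of all genes. No cilium gene was called higher, against 13.1% of all genes. Pltp was 5.23 higher in batch 3 (adjusted p = 5.51e-07), the only list gene besides Calml4 (1.49 higher, adjusted p = 0.025) to be called higher there. The cilium sum over the progenitors was 69.1 to 151.0 in batch 4 and 4.19 to 70.9 in batches 1 to 3, with BNAP/GRP1 2 the only library outside batch 4 above 34.8.

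Markers of other multiciliated or neighbouring epithelia are described as well. Ttr, which defines the choroid plexus epithelium, was listed at 0 to 2.84 RPKM in NSC, while Folr1, another gene of that list, was at 2.91 to 178.3. The summed level of 8 choroid plexus markers was 11.2 to 233.6 in NSC (median 89.1) and 0.00147 to 91.6 in the progenitors. The progenitor medians were 7.97, 7.70, 8.54 and 4.58 in BNAP/GRP1, GRP2/MP3, GRP3 and PFMP. None of the 6 that were tested was called between BNAP/GRP1, GRP2/MP3 or GRP3 and NSC, while 1 was called lower in PFMP. Of all genes, 0.76%, 1.12%, 1.04% and 1.14% were called lower in the same order. The median log2 difference of the 6 from NSC was -1.96, -2.45, -1.61 and -1.82. The 9 lung epithelium markers, of interest because airways hold ciliated cells too, summed to 983.3 in NSC 3 and 1053 to 1115 in the progenitors of batch 3, which held 0 to 2.29 RPKM of each member other than Cd24a. In NSC 1, 2 and 4 the same sum was 4.67, 10.4 and 33.2. The differences of the 6 members between NSC and the progenitors were as large without batch 3 as with it. The part of choroid plexus or airway cells in the levels of the members was not tested.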

How the data were processed

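Sorted cells of P5 mouse pups were measured by RNA-seq of amplified polyA RNA in 20 libraries, 4 for each of 5 populations, grouped by the labels' population and batch. The authors deposited RPKM values for 45705 genes; by their methods, STAR 2.6.1 was used for alignment to the build GRCm38 and Salmon 1.9.0 for abundance, after quality checks in FastQC 0.11.9 and trimming in cutadapt 3.4, with low-quality experiments excluded. Gene lengths, read totals and the annotation release are not given in the sources used here. Amplification, RPKM scaling and the number of reads can all shift the levels of low genes.

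The members and gene lists were chosen with earlier results of these data known. Values were analysed as log2(RPKM + 1), as deposited. Genes that reached 1 RPKM in 4 or more libraries of a fit were tested with limma 3.58.1 (R 4.3.3, trended prior, 1 mean per population over 20 libraries, or batch and population as factors over the 16 progenitor libraries), with Benjamini-Hochberg adjustment over all genes tested and 0.05 as threshold. Comparisons with NSC share its 4 libraries. The genes named are the 6 members, the list genes and, per member, the 5 genes of highest Pearson r over 20 libraries. A few marker genes and libraries were singled out after their values were seen. Since nothing says that libraries of a batch came from separate animals, p-values measure the spread between libraries.

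The batch number pairs the samples, as the labels give it: the median correlation of deviations from the population means was 0.337, 0.262, 0.769 and 0.581 within batches 1 to 4 (at least 0.0341). The main fit has no batch block. The settings varied were the pseudocount (0.1), the filter (none, or a mean of at least 5 RPKM), median-of-ratios scaling, quantile normalization, an untrended prior, the block, fewer populations, and each library, population or batch left out; leaving batches out of the progenitor fits was added after seeing the data. Counts of genes that pass the filter without the group where they are high were also added then. Read numbers are multiples of the smallest step of a gene's values. The limma fits were tested on simulated data. Figures used Python 3.11.15 with matplotlib 3.10.9.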

Additional observations from a re-analysis of the deposited data

Results flagged for a closer look

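Each gene and population was screened for a library whose gap to the nearest of the others was wider, as a share of the range of the 4 log2 values, than Dixon's 95% critical value. Of 30 such groups 6 had one. Chance alone flags about 1 in 20 groups, but the same screen over all genes tested found one in 23.1% of groups, so that the share among these genes was not above that of all genes. All 6 were libraries of batch 4 above the other 3 of their population. Over all genes that narrower pattern was found in 15.4% of the groups of the 5 populations, against the 6 of 30 here. Among the progenitor groups alone it was 14.6% over all genes. They were Fam183b in GRP3 4 (13.2 RPKM) and PFMP 4 (8.61 RPKM), 1700012B09Rik in BNAP/GRP1 4 (15.7 RPKM), GRP2/MP3 4 (23.4 RPKM) and PFMP 4 (6.04 RPKM), and Enkur in GRP2/MP3 4 (21.0 RPKM). No NSC library and no Cd24a value met the criterion. The relative depth of the batch 4 libraries ran from 0.0395 to 0.985, and the part of depth in these values was not tested.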

How the results depend on the processing

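No comparison between pairs of progenitors called a member under any of the alternatives, the replicate block included. The NSC minus progenitor differences kept their sign throughout, and over the libraries and batches left out they ranged from 8.06 to 9.40 for Fam183b, 7.25 to 8.92 for 1700012B09Rik, 7.24 to 8.81 for Tmem212, 5.72 to 6.83 for Mia, 6.38 to 7.39 for Enkur and 1.51 to 2.45 for Cd24a; a pseudocount of 0.1 gave 9.79 for 1700012B09Rik. The share of NSC 4 was 0.706% after quantile normalization.

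Of the 26 other ependymal genes, 15, 18, 18 and 21 were called lower in BNAP/GRP1, GRP2/MP3, GRP3 and PFMP, and 21, 23, 23 and 23 with the replicate block. Over the libraries and batches left out the counts ranged from 3 to 21, 4 to 21, 6 to 21 and 8 to 22. They were lowest without batch 2 (3, 4, 6 and 8) and low without batch 1 (5, 8, 8 and 9), while leaving out as many libraries with batch 3 gave 16, 18, 20 and 22; the cause was not tested, and without NSC 2 PFMP had 13. S100b in PFMP ranged from -1.75 to 0.25 with a library left out and turned its sign without PFMP 3. In batch 4, 5 members were called higher, 4 to 5 with a library left out, 1 of the 2 tested with a mean of at least 5 RPKM, 3 after quantile normalization, where the cause was not tested, and 2 of the 4 tested without GRP2/MP3, where Fam183b and 1700012B09Rik no longer passed the filter and Enkur lost its call (adjusted p = 0.0544, limma). The lower call there (Cd24a) ranged from 0 to 1 with a library left out and was 0 without BNAP/GRP1, without GRP3 and without batch 3. In batch 3, 2 members were called lower, 1 to 3 with a library left out, 1 without GRP2/MP3, without GRP3 or without PFMP, where 4, 5 and 5 were tested, and 0 after quantile normalization. The count was also 0 with a mean of at least 5 RPKM and without batch 4, where the called genes did not pass the filter and 2 and 3 members were tested, which says nothing of the calls; without batch 4 Tmem212 turned to 0.16. In batch 2 the count of lower members ranged from 0 to 1 with a library left out, and in batch 1 it was 1 of 3 tested without batch 4. Counting only members that pass the filter without batch 4, of which there were 3, 2 were called higher and 1 lower in batch 4, and 0 lower in batch 3. No batch block can be fitted where the batches are compared. Absolute depth is unknown, so that a value of 0 shows no absence.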
